A study of Caenorhabditis elegans with 2 samples.

Results

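The DREAM complex and synMuv genes of Caenorhabditis elegans are described here by the peaks of the homeodomain protein CEH-82 at their starts. They are 10 genes of the 19973 protein-coding genes on the nuclear chromosomes. They were chosen by name (lin-35, efl-1, dpl-1, lin-9, lin-37, lin-52, lin-53, lin-54, lin-13 and lin-36), and all 10 names were found in the annotation. A peak belongs to a gene when its summit falls within the gene or in its promoter window, which reaches 1000 bp before a transcript start and 200 bp past it. The measured values that go with this choice are the signal, rank and distance of those peaks, since earlier results of these data were known when the genes were listed. Everything below is therefore a description with no test.

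Chromatin immunoprecipitation and sequencing (ChIP-seq) was done on whole L1 larvae, the first larval stage, of mixed sex. The single strain, OP212, has the genotype unc-119(ed3) III; ddEx58 and carries ceh-82, also named F45C12.2, with GFP-FLAG fused to its C-terminal end. Both replicates have this genotype and stage, the age is labelled unknown, and there is no treatment and no other strain. There is 1 group with 2 biological replicates from 1 transgenic line. No control library was analysed here, the labels do not give the promoter or the cells in which the tagged protein is made, and whole animals average over all cell types. Peak lists hold no expression values, so the stage could not be checked against markers.

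The authors called peaks per replicate and on the pool of both, as relaxed lists that hold peaks and background, and kept as the thresholded list the optimal set of an IDR (irreproducible discovery rate) step, which compares replicates. On ce11 (WBcel235), whose coordinates count from 1 here, these lists held 16551 entries for replicate 1, 30000 for replicate 2, 30000 for the pooled replicates and 2052 for the thresholded list. The thresholded peaks were the 2052 of highest signal in the pooled list, with signal, the authors' score for a peak, from 22.3 to 406 and a median of 39.8. Not all of them were in both replicates. Of 1439 thresholded peaks in a promoter window, 1361 overlapped a peak in the relaxed list of each replicate. Scales differ between lists, so peaks are compared by their rank in a list. No source used here gives the read depth.

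The DREAM complex keeps genes of the cell cycle and of the germ line repressed in cells that have left the cell cycle. It joins a retinoblastoma-like pocket protein and an E2F-DP pair to the MuvB core, which reaches DNA in part through a short element known as the CHR. In the worm its genes were found as class B synMuv genes, whose loss, together with loss of a class A gene, gives animals with extra vulvae.

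Peaks of the CEH-82 libraries lay at the starts of most of these genes. With no control library analysed here, binding by CEH-82 and signal that promoters give in any such library cannot be told apart. A thresholded peak stood in the promoter window of 7 of the 10, namely lin-54, lin-53, lin-9, efl-1, lin-36, lin-13 and lin-35 in order of pooled signal. Of all protein-coding genes, 1980 of 19973 had such a peak (9.91%, 95% Wilson interval 9.51 to 10.3, which covers counting error only). With summits inside the gene counted too it was still 7 (10.9% of all genes). In the pooled relaxed list all 10 had a promoter peak, where 43.4% of all genes did. In the relaxed lists of the replicates, 8 of the 10 had one in replicate 1 (29.7% of all genes) and 10 in replicate 2 (43.6%). No gene of the 10 had a thresholded summit in its body outside the window (1.30% of all genes). The same 7 had a promoter peak among the strongest 2052 of replicate 1 alone (9.14% of all genes) and of replicate 2 alone (9.86%). Over the 10 genes the strongest pooled promoter peak had a median signal of 54.4 (range 6.07 to 240.0), and over the 8660 genes with a pooled promoter peak the median was 8.07.

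**Figure D1:**
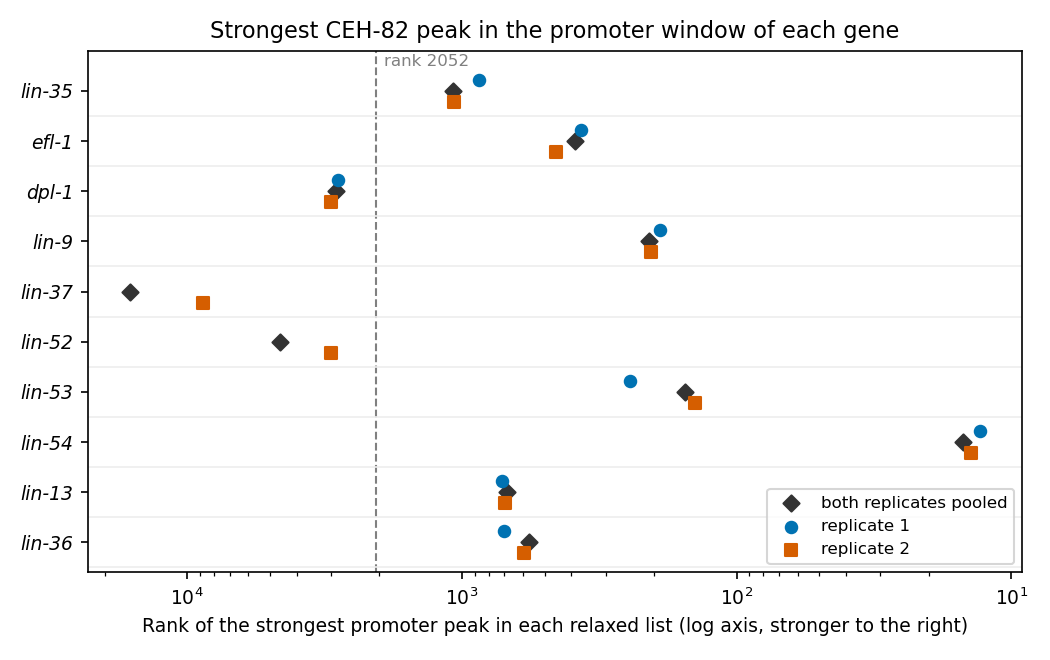
Rank of the strongest promoter peak of each of the 10 genes (rows) in the relaxed lists of replicate 1 (circles), replicate 2 (squares) and both pooled (diamonds), on a log axis with stronger peaks to the right. The dashed line marks rank 2052, where the thresholded list ends, and the 7 genes to its right in the pooled list are to its right in both replicates. For lin-37 and lin-52 no circle is drawn, since replicate 1 had no peak in their windows.

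Sequences under summits are shown because the members that read DNA in this complex have known target elements. Those of 5 of the 7 thresholded summits are printed, without lin-35 and lin-53. The lin-53 window held 2 CHR matches and no E2F-like match, and the lin-35 window held neither. Each line gives WBcel235 (RefSeq) sequence, 5′ to 3′ on the strand of the gene, as 201 bp centred on the summit except for lin-54. The lin-54 line begins just outside rpl-12, so it is shorter (123 bp) and its summit lies nearer its 5′ end. Capitals mark matches to the CHR (TTTGAA or TTCGAA) or to E2F-like sites (TTCCCGC or TTCGCGC or TTGGCGC or TTGCCGC), read on both strands.
efl-1 (chrV:16965761-16965961, minus strand): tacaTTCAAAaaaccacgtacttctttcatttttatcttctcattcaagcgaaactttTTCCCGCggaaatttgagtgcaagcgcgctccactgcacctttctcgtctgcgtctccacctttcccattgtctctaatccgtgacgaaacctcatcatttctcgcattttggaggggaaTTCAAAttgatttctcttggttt
lin-9 (chrIII:8904182-8904382, minus strand): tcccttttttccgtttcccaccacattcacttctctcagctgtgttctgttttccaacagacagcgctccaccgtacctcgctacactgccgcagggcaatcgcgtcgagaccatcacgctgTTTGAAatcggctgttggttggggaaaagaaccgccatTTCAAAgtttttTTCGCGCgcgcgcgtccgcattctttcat
lin-54 (chrIV:13240652-13240774, plus strand): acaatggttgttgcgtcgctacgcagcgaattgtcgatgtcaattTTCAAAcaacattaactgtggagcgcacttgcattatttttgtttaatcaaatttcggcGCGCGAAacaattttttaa
lin-13 (chrIII:7710161-7710361, minus strand): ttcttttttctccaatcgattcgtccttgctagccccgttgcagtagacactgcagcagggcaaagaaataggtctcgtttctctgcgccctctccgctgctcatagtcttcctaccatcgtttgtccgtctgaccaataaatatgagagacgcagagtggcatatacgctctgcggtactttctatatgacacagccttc
lin-36 (chrIII:8021012-8021212, minus strand): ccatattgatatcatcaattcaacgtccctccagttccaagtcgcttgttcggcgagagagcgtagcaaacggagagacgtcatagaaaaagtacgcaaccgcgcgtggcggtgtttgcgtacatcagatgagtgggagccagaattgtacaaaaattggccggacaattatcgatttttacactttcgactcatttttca

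Among the genes for the pocket protein and its E2F partners, the efl-1 peak was the strongest. efl-1 (WBGene00001161, chromosome V, 16958590 to 16965675, minus strand) encodes an E2F protein of the repressive kind. Its summit lay in intergenic sequence 186 bp upstream of the start, with a signal of 17.4 in replicate 1 (rank 368), 50.7 in replicate 2 (rank 454) and 70.6 in the pooled list (rank 389). The replicates placed the summit within 1 bp of each other. The peak was also 953 bp upstream of fbxa-90, an F-box gene on the other strand, and so lay near the outer edge of that window.

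lin-35 (WBGene00003020, chromosome I, 5807709 to 5815637, plus strand) encodes the retinoblastoma-like pocket protein. Its thresholded peak was the weakest of the 7, with a signal of 10.8 in replicate 1 (rank 865), 29.8 in replicate 2 (rank 1071) and 38.5 in the pooled list (rank 1076). The summit lay 196 bp upstream of lin-35 and 222 bp upstream of vps-51, a gene for a vesicle tethering factor whose start is 418 bp from that of lin-35. The peak therefore cannot be given to either gene alone. A weaker summit 810 bp upstream, in a coding exon of vps-51, had rank 8752 in the pooled list and 2400 in replicate 1, and replicate 2 had no summit there.

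dpl-1 (WBGene00001061, chromosome II, 9169910 to 9172565, plus strand) encodes the DP partner of E2F proteins, and of the 3 genes outside the threshold it had the strongest peak. Its promoter peak, 274 bp upstream, had a signal of 4.81 in replicate 1 (rank 2825), 12.1 in replicate 2 (rank 2991) and 15.7 in the pooled list (rank 2866). Both replicates thus held it, below rank 2052 in each. The -log10 q of the pooled peak was 3.81, the highest value in the pooled list and the value of every thresholded peak, so it does not place dpl-1 relative to the threshold. The lowest thresholded signal was 22.3, and lin-35, at 38.5, was the nearest of the 10 inside. The summit fell in a UTR of T23G7.2, which lies on the opposite strand and overlaps dpl-1. The nearest thresholded peak to dpl-1 was 7377 bp downstream, between sec-5 and pir-1.

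In the MuvB core, 3 genes had strong peaks and the other 2 had none in the thresholded list. lin-54 (WBGene00003037, chromosome IV, 13241044 to 13243401, plus strand) encodes the core protein that binds DNA. Its peak had a signal of 57.7 in replicate 1 (rank 13), 184 in replicate 2 (rank 14) and 240.0 in the pooled list (rank 15), so that 18 protein-coding genes, lin-54 included, had a promoter peak at least as strong. The peak was 159 bp wide, against a median of 230 bp in the thresholded list. The summit was 370 bp upstream of lin-54 but 23 bp upstream of rpl-12, which encodes a protein of the large ribosomal subunit and is transcribed the other way from a start 393 bp from that of lin-54. These lists cannot tell binding for the one gene from binding for the other.

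lin-53 (WBGene00003036, chromosome I, 9618196 to 9619760, minus strand) encodes a WD-repeat protein that binds histones and also serves in other chromatin complexes. The signal of its peak was 20.8 in replicate 1 (rank 244), 86.4 in replicate 2 (rank 142) and 106.7 in the pooled list (rank 154). The summit lay 241 bp upstream of lin-53 and 226 bp upstream of nra-2, a nicalin-related gene on the other strand, and the starts are 467 bp apart. The peak was nearly midway between the starts.

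lin-9 (WBGene00002998, chromosome III, 8900237 to 8904131, minus strand) encodes a core subunit related to Drosophila Aly. The signal was 22.6 in replicate 1 (rank 190), 72.4 in replicate 2 (rank 205) and 92.6 in the pooled list (rank 208), and no other protein-coding gene had this peak in its window. The summit lay 151 bp upstream, the closest to a member's start among the 7, and its place differed by 2 bp between replicates. The order of lin-9 and lin-53 was reversed between the replicates, so their levels cannot be ordered, and all other neighbours among the 7 kept their order. Of these, lin-36 and lin-13 were close, at ranks 700 and 715 in replicate 1 and 595 and 697 in replicate 2.

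lin-37 and lin-52, the 2 core genes without a thresholded promoter peak, each follow another gene on the same strand. lin-37 (WBGene00003022, chromosome III, 7070890 to 7072552, minus strand) starts 60 bp after the end of ZK418.5. Its window held a summit of signal 6.07 in the pooled list (rank 16118) and 6.56 in replicate 2 (rank 8804), in a coding exon of ZK418.5, and replicate 1 had none. A thresholded peak lay farther out, 1615 bp upstream of lin-37 and 316 bp upstream of ZK418.5, with a signal of 30.7 (rank 1444). That peak had rank 1841 in replicate 1 and 1486 in replicate 2, so it was among the strongest 2052 of both.

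lin-52 (WBGene00003035, chromosome III, 9824083 to 9824750, minus strand) encodes the small subunit through which the core is held to the pocket protein. It starts 126 bp after the end of ZK632.9. Its window held summits of signal 10.8 (rank 4609), 947 bp upstream of lin-52 and also upstream of ZK632.9, and of signal 9.76 (rank 5534) inside a coding exon of ZK632.9. Replicate 2 had both, at ranks 3003 and 4943, and replicate 1 had neither. The nearest thresholded peak, 5569 bp downstream, was at panl-3.

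**Figure D2:**
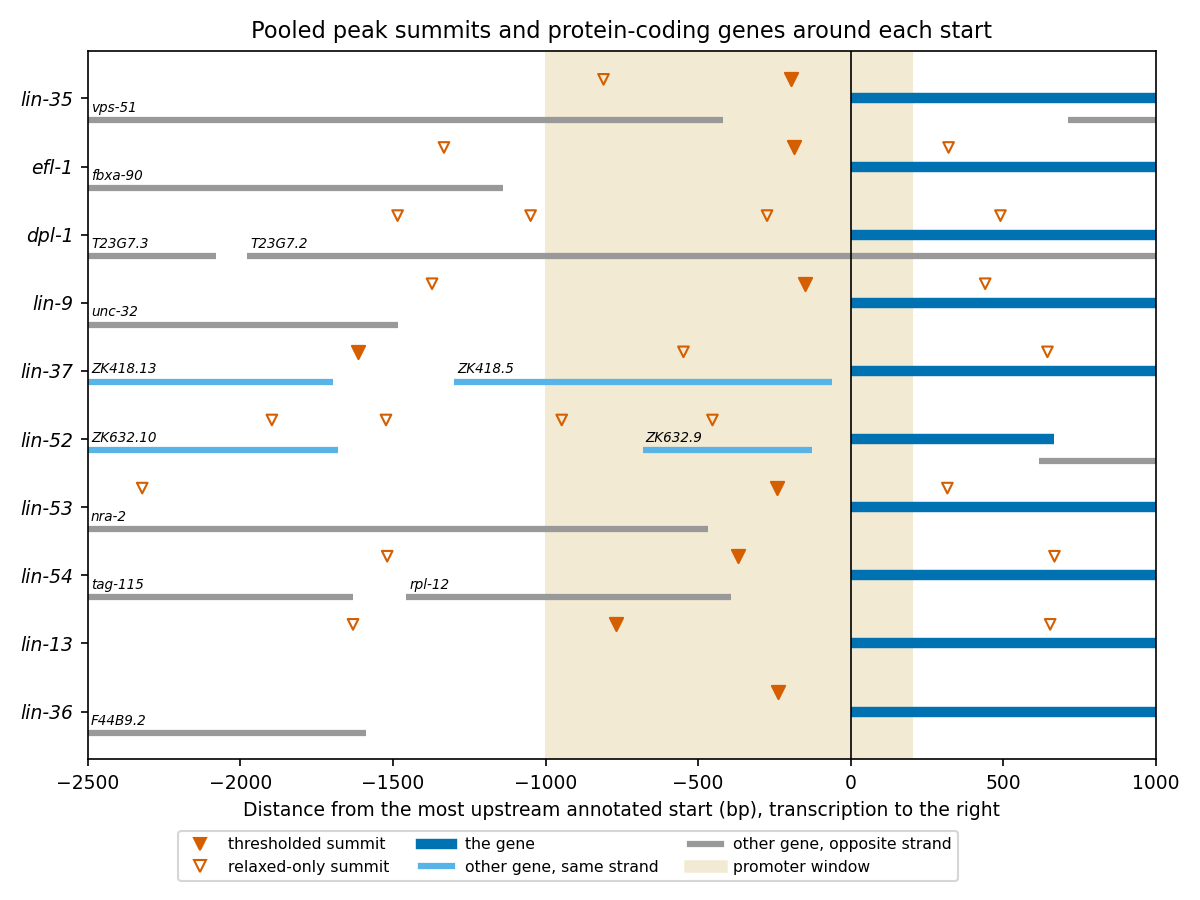
Summits of pooled peaks (triangles, filled where thresholded) around the most upstream start of each of the 10 genes, with distance in bp on the horizontal axis, transcription to the right and the promoter window shaded. Bars are protein-coding genes, with other genes on the same strand in light blue and on the opposite strand in grey. The filled triangles of lin-35, lin-53 and lin-54 lie in short gaps between genes that point away from each other, and that of lin-37 lies beyond ZK418.5.

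Beyond the complex itself, both zinc finger and THAP genes had thresholded peaks in no other protein-coding gene's window. lin-36 (WBGene00003021, chromosome III, 8016648 to 8020873, minus strand) encodes a THAP domain protein that acts with the complex. The signal was 12.3 in replicate 1 (rank 700), 43.7 in replicate 2 (rank 595) and 56.9 in the pooled list (rank 570). The summit lay 239 bp upstream, within 200 bp of the noncoding gene F44B9.11.

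lin-13 (WBGene00003002, chromosome III, 7700338 to 7709491, minus strand) encodes a protein with many zinc fingers. The signal was 12.2 in replicate 1 (rank 715), 39.9 in replicate 2 (rank 697) and 51.9 in the pooled list (rank 684). At 770 bp upstream, its summit was the farthest from a start among the 7, and with a window of 500 bp lin-13 was no longer counted. For genes whose messages are trans-spliced, an annotated start may be the splice site and not the first transcribed base.

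The replicates differed in scale and little in place. For the 8 genes with a promoter peak in both replicates, the signal of replicate 2 was 2.50-fold (dpl-1) to 4.15-fold (lin-53) that of replicate 1, and over 1361 thresholded promoter peaks found in both the median was 3.54-fold (interquartile range 2.69 to 4.71). Summits of these 8 genes moved by 1 bp (efl-1) to 45 bp (dpl-1) between replicates, where the 1361 peaks had a median of 15 bp (interquartile range 6 to 32). On both measures dpl-1 lay outside the interquartile range of the thresholded peaks, below it in fold and above it in shift. Its own peak was not thresholded, and no such range was computed for weaker peaks.

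Weak peaks also lay inside the genes. The strongest of them in the pooled list was in lin-35, with a signal of 10.2 (rank 5137), and the next gene was lin-9, with a signal of 8.51. In lin-52 and lin-36 the pooled list had no summit within the gene. These entries are below the thresholded set, in a list that the authors label as a whole as peaks and background, so they may be either.

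The 10 genes differ in how they lie to their neighbours. Start-to-start neighbours on opposite strands, with a gap of at most 1000 bp, were found for lin-35, lin-53 and lin-54, all 3 with a thresholded peak, and 27.0% of the 3438 genes in this arrangement had one. Genes that start at most 200 bp after another gene on the same strand were lin-37 and lin-52, neither with a thresholded peak, where 5.11% of 1878 such genes had one. These classes were chosen after the values were seen and are given as a description. When a peak counted only if no other protein-coding gene's window held it, 3 of the 10 had a thresholded peak. These were lin-9, lin-13 and lin-36, and 4.29% of all genes had one. By chromosome, 5 of the 10 genes are on III, which holds 13.2% of protein-coding genes, and 15.9% of genes on III had a thresholded promoter peak. None is on the X chromosome.

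**Figure D3:**
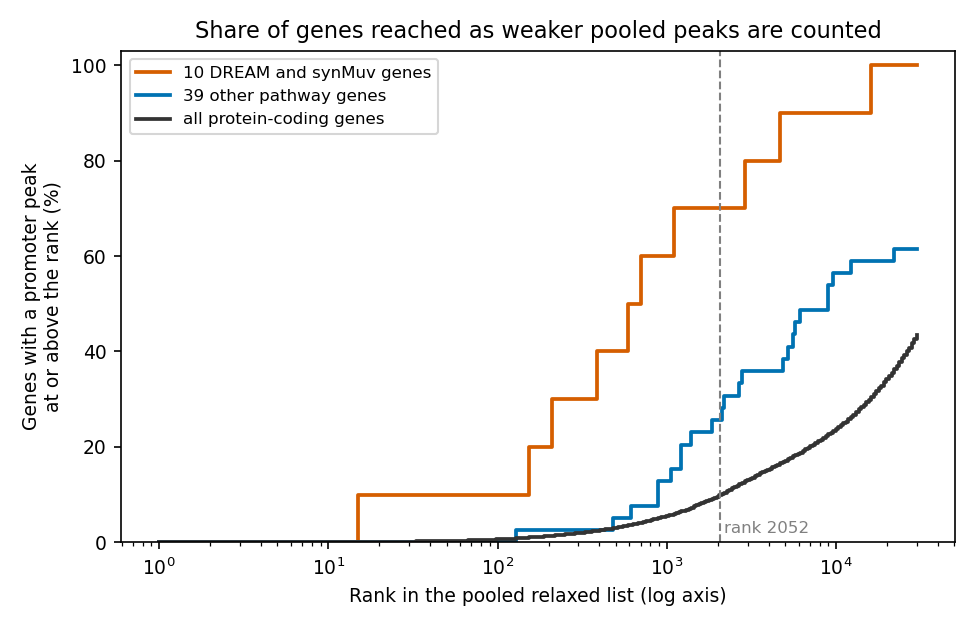
Share of genes (vertical axis, %) whose strongest promoter peak is at or above a given rank of the pooled relaxed list (horizontal log axis), for the 10 DREAM and synMuv genes, 39 other genes of the pathway and all protein-coding genes. At the dashed line, rank 2052, the shares are 7 of 10, 25.6% and 9.91%. The curve of the 10 genes has steps of a single gene and carries no test.

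Matches to the known elements of the complex were found at some of the summits. In the 201 bp windows, 4 of the 7 thresholded peaks held a CHR match, those of efl-1, lin-9, lin-53 and lin-54. Of all thresholded windows 41.5% held one, and of 201 bp promoter sequences 56.2% did. The CHR count is thus near the promoter share and does not set these peaks apart. E2F-like letters were in 3 of the 7, those of efl-1, lin-9 and lin-54, where 17.6% of thresholded windows and 6.29% of promoter sequences held them. The homeodomain core TAATTA was in 0 of the 7, in 4.92% of thresholded windows and in 11.9% of promoter sequences. The efl-1 window held TTCCCGC and 2 copies of TTCAAA, which is TTTGAA on the other strand. The lin-9 window held TTTGAA on each strand and TTCGCGC. The lin-54 window held TTCAAA and GCGCGAA, which is TTCGCGC on the other strand, and TTGGCGC in its part within rpl-12, which is not printed. No CHR match overlapped an E2F-like match in these windows.

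The windows of lin-13, lin-35 and lin-36 held none of these letters, which says only that they are not in these 201 bp. At the relaxed summits, the dpl-1 window held TTCAAA, the lin-52 window held 3 copies of TTCAAA and GCGCCAA, which is TTGGCGC on the other strand, and the lin-37 window held none. The G and C content of the 7 windows ran from 39.3% (lin-35) to 52.2% (lin-9). All thresholded windows had a median of 44.3% (interquartile range 38.8 to 49.3) and promoter sequences one of 32.8%. Letter matches depend on base content, and their part in these counts was not tested.

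The genes closest in level, taken as those at the next stronger and next weaker thresholded promoter peak of the pooled list, were of several kinds. lin-54 stood between cox-5A (signal 243), for a subunit of cytochrome c oxidase, and the pair iff-2 and F54C9.14 (228), of which iff-2 encodes a translation factor. lin-53 stood between cyc-1 (106.9), for cytochrome c1 of the respiratory chain, and hrpu-2 (106.6), and lin-9 between cox-6A (92.7) and the pair Y51H7C.7 and Y51H7C.41 (92.5). efl-1 stood between C49A9.10 and the pair klc-1 and let-70, lin-36 between the pair nola-3 and C25A1.16 and idhb-1, lin-13 between the pair B0464.6 and B0464.9 and seip-1, and lin-35 between the pair bir-2 and nuaf-1 and the pair kle-2 and C29E4.12. The likeness is one of rank in a single pooled list.

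Of 39 other genes of the synMuv pathway and its partners, 10 had a thresholded promoter peak (25.6%, beside 9.91% of all genes) and 24 a pooled relaxed one (61.5%, beside 43.4%). The TIP60 and class C genes, for a histone acetyltransferase complex, had it at 3 of 4. Their peaks were those of epc-1 (signal 114.6, rank 126), trr-1 (64.3, rank 464) and mys-1 (35.7, rank 1202), and ssl-1 had a relaxed peak only. The epc-1 peak also lay in the window of Y111B2A.12, and the trr-1 peak in that of C47D12.2. The epc-1 peak had rank 165 in replicate 1 and 129 in replicate 2. It was therefore stronger in rank than all of the 10 genes but lin-54 in both replicates.

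Genes of the NuRD and MEC complexes, for chromatin remodelling and histone deacetylation, had it at 3 of 6. They were mep-1 (signal 44.4, 229 bp upstream), lin-40 (39.6, 879 bp) and hda-1 (31.7, 982 bp), with the last in a window shared with ril-1. No peak of replicate 1 overlapped that of mep-1, so it rests on replicate 2 (rank 712). let-418, chd-3 and rba-1 had no thresholded promoter peak, and rba-1 starts after the end of lin-53 on the same strand.

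SUMO pathway genes, for a small protein modifier, had it at 2 of 4, smo-1 (35.4) and uba-2 (25.4). The smo-1 peak was not overlapped in replicate 1, and the uba-2 peak had rank 501 in replicate 1 and 3960 in replicate 2. The uba-2 peak also lay in the window of vps-25. lin-15B, a THAP domain gene of class B, had a peak 965 bp upstream (44.1), and tam-1 had no thresholded one. Among 6 G1 regulators only cye-1, for cyclin E, had a thresholded promoter peak, 560 bp upstream in a window shared with pqn-21 (55.6). In so few genes, 1 of 6 (16.7%) is near the 9.91% of all genes.

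The remaining groups, of 1 to 5 genes each, had no thresholded promoter peak, and with 9.91% of all genes having one, a count of 0 in so few genes is near the background. They were the class A genes (0 of 4), the heterochromatin genes hpl-2, hpl-1, lin-61, met-2 and lin-65 (0 of 5), the other E2F genes (0 of 2), the vulval induction genes lin-3, let-23, ark-1, gap-1 and sli-1 (0 of 5) and mcd-1 (0 of 1). Of these, lin-38, of class A, was just below the threshold, with a pooled signal of 22.03 (rank 2082). It ranked 885 in replicate 1 and 3018 in replicate 2. In the SUMO group ubc-9 was slightly lower, with 21.7 (rank 2115).

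**Figure D4:**
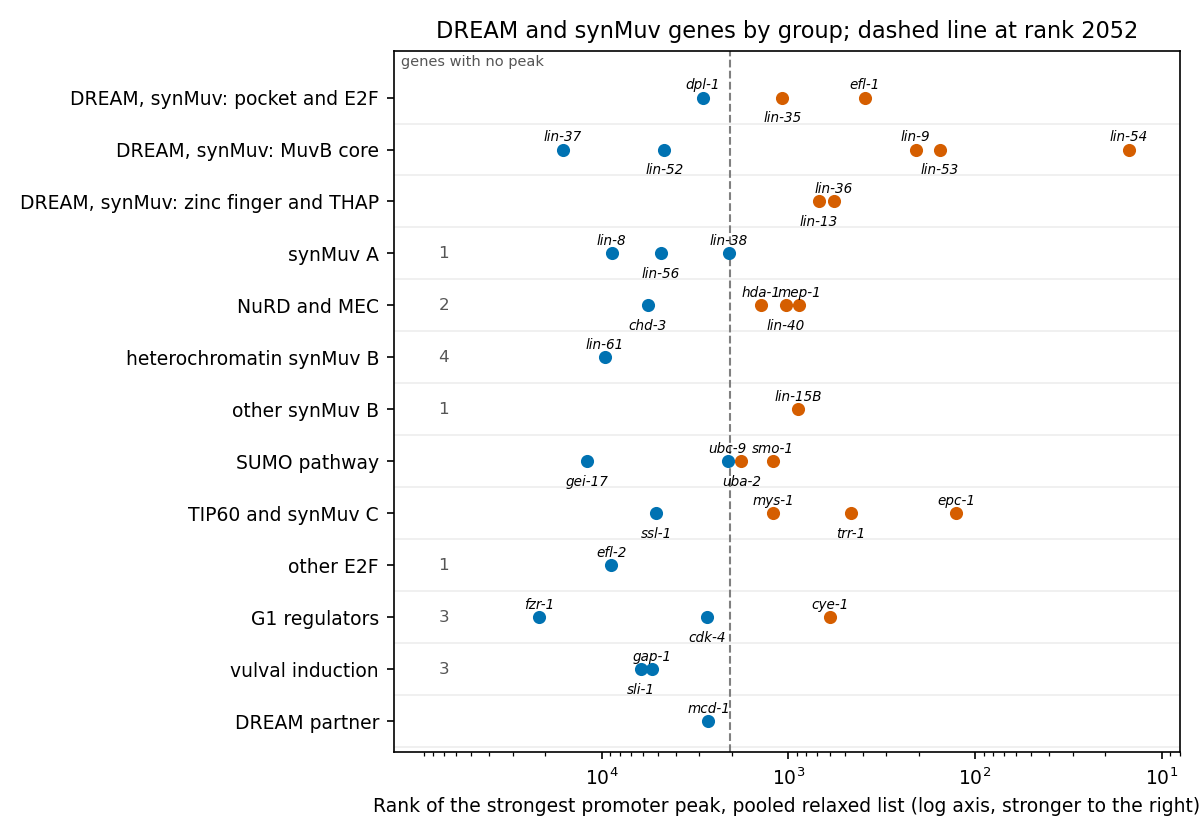
Rank of the strongest promoter peak in the pooled relaxed list (log axis, stronger to the right) for the 10 DREAM and synMuv genes in 3 groups and for 39 other genes in 10 groups, with genes within the first 2052 ranks in orange. Numbers at the left count genes with no peak in the window. The class A, heterochromatin and vulval induction groups have no orange point, and epc-1 is the strongest of the 39.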

How the data were processed

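Tagged CEH-82 was profiled by ChIP-seq in 2 biological replicates of L1 larvae, which form 1 group. The authors aligned reads to ce10 and ce11 and called peaks for each, per the file headers. The relaxed lists were the input to IDR (irreproducible discovery rate) and the thresholded list is its optimal set, per the file headers. Not given in the sources used here were the aligner, the peak caller and the IDR cutoff. Each deposited list holds intervals with a summit, a signal value, which is the authors' score, and a -log10 q. Signal depends on depth, which is unknown, and its scale differs between lists. The ce10 lists were not used, and no coordinate was converted.

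The ce11 peaks were placed on WBcel235, with genes from Ensembl release 115 and sequence from RefSeq. Chromosome lengths of that sequence extend past the last peak on each chromosome. Promoter windows took in 1000 bp before and 200 bp after every annotated start of a protein-coding gene. A peak's rank is by signal within its list. Motif letters were sought on either strand in 201 bp at summits and, for promoter sequences, in the annotated start and the 200 bp before it. Replicate peaks were matched by an overlap of at least 1 bp.

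The 10 genes, the 39 other pathway genes and the motifs were chosen with earlier results of these data known, and no test was made. All 10 genes are named, with the genes that share their peaks, the pathway genes with a thresholded peak, and the genes next in rank. lin-38, ubc-9 and the pathway genes named without a thresholded peak were chosen after their values were seen. The alternatives were other windows, overlap of the interval, the most upstream start, peaks of a single gene, a stricter signal, and each replicate alone. The placement of summits was checked on simulated peaks. Python 3.11.15, NumPy 2.4.6, SciPy 1.17.1, pandas 2.3.3 and matplotlib 3.10.9 were used.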

Additional observations from a re-analysis of the deposited data

How the results depend on the processing

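The count of 7 genes with a thresholded promoter peak was 6 with 500 bp windows (without lin-13, beside 8.24% of all genes) and with signal above the thresholded median (without lin-35, beside 5.68%), and 8 with 2000 bp windows (with lin-37, beside 12.6%). It was 7, with the same genes, for overlap of the interval, the most upstream start and either replicate left out. With peaks held by no other protein-coding gene's window it was 3, also when summits inside the gene were counted. The share of all genes was then 4.29%. The count of 39 other pathway genes fell from 10 to 5 with 500 bp windows, with peaks of a single gene and with signal above the median. It was 12 with 2000 bp windows and 8 to 10 with a replicate left out, but the genes then changed. Without replicate 1 (10 genes), ubc-9 came in and uba-2 dropped out. Without replicate 2 (8 genes), lin-38 came in and mep-1, hda-1 and smo-1 dropped out. All 10 genes had a relaxed promoter peak in replicate 2 (43.6% of all genes) and 8 had one in replicate 1 (29.7%). In the pooled relaxed list the count of 10 fell to 8 with 500 bp windows (without lin-37 and lin-13). With peaks of a single gene it was 7 (without efl-1, lin-53 and lin-54). It stayed 10 with 2000 bp windows, overlap of the interval and the most upstream start. Shares of all genes are not given here for these pooled relaxed alternatives. In windows chosen after seeing the data, E2F-like letters were at 2 of the 7 peaks in 101 bp (247 of 2052 thresholded windows) and 5 in 301 bp (419 of 2052), and the CHR at 3 (405) and 5 (1177). No paired analysis was possible because there was 1 group and no test. Read depth is unknown, so a gene without a peak may be below detection.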
